A study of Rattus norvegicus with 75 samples.

Results

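The comparison described here is that of the rat cortical collecting duct (CCD) after 36 h of dietary lithium with the CCD of control rats at 36 h, taken across all genes. It holds 6 of the 75 libraries of the series, 3 from lithium-fed and 3 from control rats, and they were picked by the segment, agent and time in their labels. The series asks which signals start nephrogenic diabetes insipidus under lithium. All groups were male Sprague-Dawley rats of 120 to 160 g on a light-dark cycle of 12 h each, and the lithium groups were fed lithium chloride (40 mM in each kg of food) over 12, 24, 36 or 72 h, while controls ate the food without it. Segments were dissected by hand, so each library is a bulk sample of a tubule with all of its cell types. Messenger RNA was read from cDNA made with a SMARTer V4 kit. Neither the number of tubules nor the number of rats behind a library is given in the labels. The p-values therefore measure the spread between libraries of a group, which may be technical.

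The CCD is built from principal cells, which take up water through aquaporins under vasopressin and sodium through the epithelial sodium channel under aldosterone, and from intercalated cells, which move acid and base. Lithium enters principal cells through that sodium channel, inhibits glycogen synthase kinase 3 and inositol phosphatases, and over days to weeks makes the kidney insensitive to vasopressin. Loss of aquaporin 2 and proliferation of principal cells are both known from collecting ducts of lithium-fed rodents.

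Values are given as TPM, a level corrected for transcript length and brought to the same sum in each library. The depth of sequencing cannot be read from such values and no counting error can be given. Between 11741 and 11829 genes reached 1 TPM in a control library and between 12007 and 12143 in a lithium library. Transcripts of 13 mitochondrial genes made up 8.48% to 11.1% of TPM in controls and 7.74% to 8.11% with lithium. On log2(TPM + 1), library pairs correlated at r between 0.979 and 0.983 within the controls, between 0.982 and 0.984 within the lithium group and between 0.947 and 0.952 across the groups (across genes, which are not independent replicates). The libraries were also sorted by 8 genes that were chosen after these data were seen. Each gene was scored high or low, split at a large gap between its values in the CCD libraries. Libraries of a group with the same pattern are called a set. The 3 control libraries at 36 h shared a single pattern and the 3 lithium libraries shared another, and the patterns differed in 4 of the 8 genes. Because of how the genes were chosen, a shared pattern is not separate evidence that libraries are alike. At 72 h the control and lithium groups each held 4 such patterns. At 36 h the diet and whatever each set of libraries shares (such as a preparation or a rat) cannot be told apart. Counts are therefore also given from a fit in which the libraries of a set were averaged to 1 value and the spread came from the sets at 72 h (the fit on set means), and against all 26 control CCD libraries of the series.

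The clearest change at 36 h was in genes of DNA replication and mitosis, and the promoters of these genes are shown first because they carry different short motifs. RefSeq promoters of the GRCr8 assembly, from 250 bases before to 50 after each gene's start, were searched on both strands. An E2F-type site (TTTCCCGC or TTTGGCGC) stood in 11 of 28 promoters of G1/S and DNA replication genes, 39.3%, against 2.99% of 9778 promoters of genes tested here and 1.45% of all 33469 promoters. The promoters of Mcm5 (chr19:13488563-13488862, plus strand) and Mcm3 (chr9:30733697-30733996, minus strand), which encode subunits of the replicative helicase, are printed 5′ to 3′ on the gene's strand, with the site or its reverse complement in capitals.
Mcm5: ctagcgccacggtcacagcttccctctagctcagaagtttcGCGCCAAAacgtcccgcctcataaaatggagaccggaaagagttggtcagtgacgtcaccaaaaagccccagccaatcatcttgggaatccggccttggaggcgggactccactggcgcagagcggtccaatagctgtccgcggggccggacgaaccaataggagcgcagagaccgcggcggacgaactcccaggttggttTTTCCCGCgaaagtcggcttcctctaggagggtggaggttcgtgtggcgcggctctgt
Mcm3: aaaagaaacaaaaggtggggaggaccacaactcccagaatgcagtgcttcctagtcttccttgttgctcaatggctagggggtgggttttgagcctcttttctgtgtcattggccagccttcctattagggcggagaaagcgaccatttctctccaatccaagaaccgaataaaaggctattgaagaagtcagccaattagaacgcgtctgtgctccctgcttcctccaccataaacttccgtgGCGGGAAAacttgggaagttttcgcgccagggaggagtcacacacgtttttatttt
In promoters of G2/M, spindle and kinetochore genes the E2F-type site was in 0 of 33. The cell cycle homology region (CHR, TTTGAA or TTCGAA) was in 26 of the 33, 78.8%, against 13.6% of promoters of tested genes, and a CCAAT box was in 24, 72.7%, against 38.2%. In the G1/S promoters these shares were 21.4% and 60.7%. The promoters of Spc25 (chr3:74396669-74396968, minus strand), a kinetochore subunit, Prc1 (chr1:143659231-143659530, plus strand), a bundler of spindle microtubules, and Kif23 (chr8:71320535-71320834, minus strand), a motor of the central spindle, follow with CHR elements and CCAAT boxes of either strand in capitals.
Spc25: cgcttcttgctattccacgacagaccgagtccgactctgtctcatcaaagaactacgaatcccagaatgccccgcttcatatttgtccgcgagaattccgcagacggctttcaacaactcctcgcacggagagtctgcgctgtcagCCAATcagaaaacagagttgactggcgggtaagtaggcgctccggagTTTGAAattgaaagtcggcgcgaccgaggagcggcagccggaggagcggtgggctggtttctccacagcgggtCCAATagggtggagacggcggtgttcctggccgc
Prc1: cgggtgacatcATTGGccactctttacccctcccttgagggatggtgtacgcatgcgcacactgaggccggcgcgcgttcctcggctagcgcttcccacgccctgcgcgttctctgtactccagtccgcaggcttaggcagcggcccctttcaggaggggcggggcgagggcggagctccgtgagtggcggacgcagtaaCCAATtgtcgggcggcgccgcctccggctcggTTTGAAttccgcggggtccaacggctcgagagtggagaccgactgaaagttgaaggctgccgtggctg
Kif23: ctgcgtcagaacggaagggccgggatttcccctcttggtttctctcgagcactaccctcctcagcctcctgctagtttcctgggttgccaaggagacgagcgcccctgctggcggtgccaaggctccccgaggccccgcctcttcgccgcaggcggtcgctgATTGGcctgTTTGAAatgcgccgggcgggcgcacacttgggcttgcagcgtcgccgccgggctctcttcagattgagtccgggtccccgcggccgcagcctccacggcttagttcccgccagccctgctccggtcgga
A match describes the letters only. These genes were the members of smallest p in their list that held a match, and no run of capitals joins matches of different motifs. Other CCAAT boxes in the Mcm5 and Mcm3 lines are left in lower case.

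A large share of the CCD transcriptome differed between lithium and control libraries at 36 h. Of 12998 genes tested with limma and Benjamini-Hochberg adjustment (adjusted p under 0.05), 3084 rose, 23.7%, and 1105 fell, 8.5%. All counts of list members that rose or fell are read against these shares. Changes were measured on log2(TPM + 1), where the added 1 shrinks those of low genes. Changes of at least 2-fold on it numbered 823 upward and 164 downward. The median over all genes was 0.13 above 0, so group medians below are read against that value. With median-of-ratios scaling, which put this median at 0.00, 2148 genes rose and 2004 fell, and with quantile normalization 2025 rose and 2440 fell. The share of calls that were upward was thus 73.6%, 51.7% and 45.4% under these 3 scalings. Of the genes called, 1700 lay above all 26 control CCD libraries of any time and 156 lay below all of them. On set means 652 genes were called, 579 higher and 73 lower, and 636 of these were among the calls of the fit over libraries with the same direction.

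**Figure D1:**
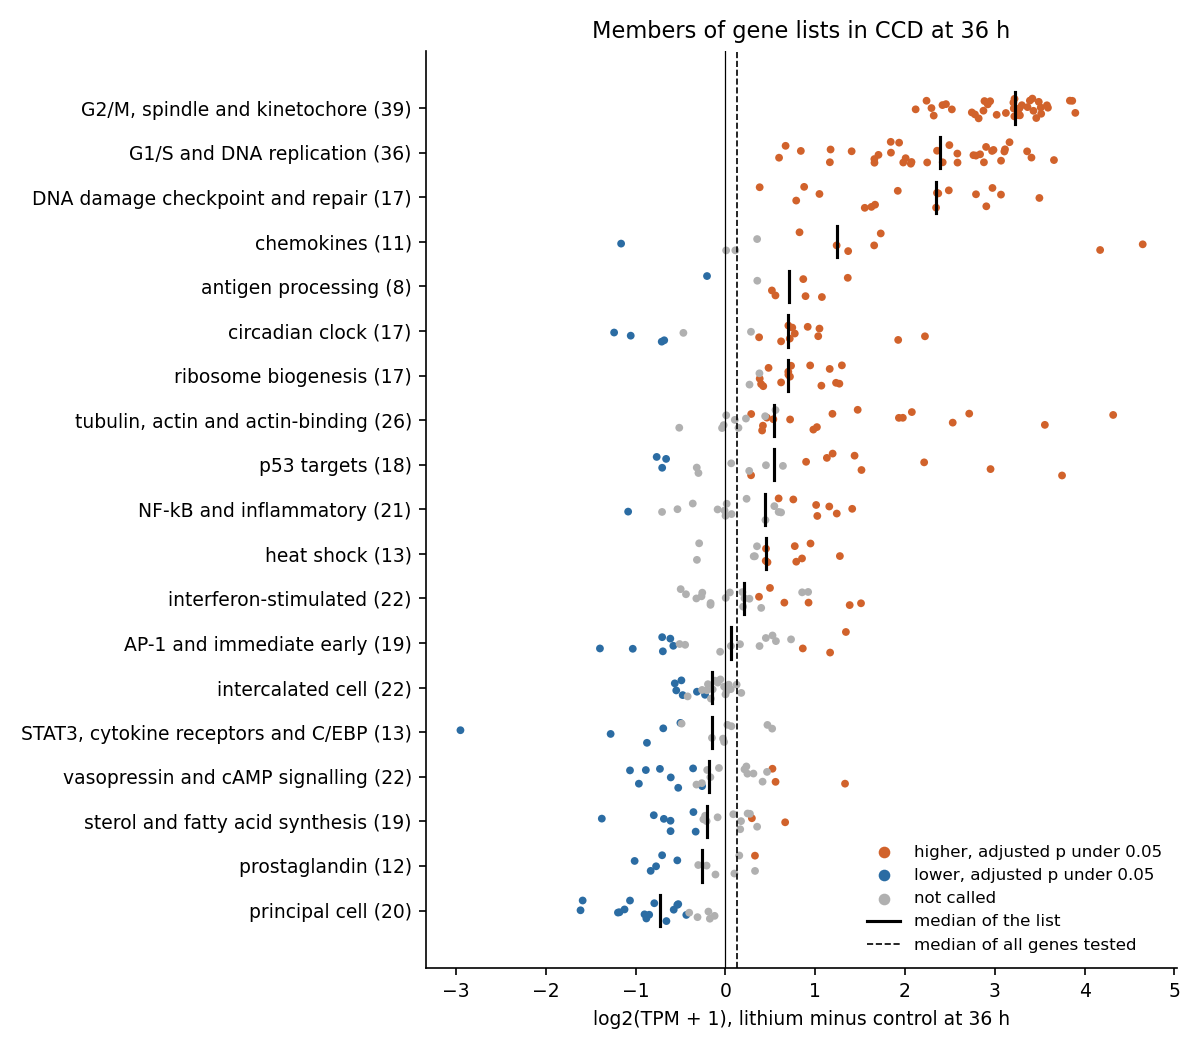
Each point is 1 gene of the list named on the left (number of genes tested in brackets), placed by its difference in log2(TPM + 1), lithium minus control at 36 h. Orange points were higher and blue points lower at an adjusted p under 0.05, grey points were not called, the short bars are list medians and the dashed line is the median of all genes, 0.13. The 3 lists at the top have no blue or grey point, and the principal cell list at the bottom has no orange point.

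The plot of list members by their difference gives 19 of the 43 lists examined, from G2/M genes with a median of 3.22 to principal cell genes with a median of −0.72. Both ends lie well away from the median of all genes.

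Genes of water and sodium transport in principal cells were lower with lithium. Of 20 principal cell genes tested, 15 fell and 0 rose, against 8.5% of all genes falling, and their median log2 difference was −0.72. The count of members that fell was 17 with median-of-ratios scaling and 16 with quantile normalization, where 2004 and 2440 of all 12998 genes fell. In bulk tubule, fewer cells of a type and less RNA per cell cannot be told apart. Aqp2, the vasopressin-regulated water channel of the apical membrane, had 5853, 6320 and 5389 TPM in controls and 1844, 1824 and 2072 TPM with lithium. The lithium values were below those of all 26 control CCD libraries, of which the lowest was 3434 TPM. The difference was −1.61 ± 0.09 (log2, SE, adjusted p = 1.9e-09, and 0.034 on set means). The basolateral water channels Aqp3 and Aqp4 differed by −0.79 ± 0.11 (adjusted p = 5.2e-05) and −1.12 ± 0.19 (adjusted p = 0.00027).

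The epithelial sodium channel and its regulators moved the same way. Scnn1b, its beta subunit, fell from 859, 997 and 784 TPM to 264, 281 and 331 TPM, a log2 difference of −1.59 ± 0.11 (adjusted p = 1.5e-08), again below all controls of any time. The alpha and gamma subunits differed by less: Scnn1a by −0.85 and Scnn1g by −0.66 on the log2 scale. Kcnj1, the potassium channel through which principal cells secrete potassium, had 1425, 1892 and 1414 TPM in controls and 648, 662 and 738 TPM with lithium (−1.20 ± 0.17, adjusted p = 6.3e-05). Fxyd4, a modulator of the sodium pump, differed by −1.18, and Hsd11b2, which shields the mineralocorticoid receptor from glucocorticoids, by −0.88 (adjusted p = 7.4e-07). Atp1b1, the beta subunit of the pump, differed by −0.17 and was not called (adjusted p = 0.13). It was called lower with median-of-ratios scaling (adjusted p = 0.0053) and without control library 3 (adjusted p = 0.042). The calls of the receptor gene Nr3c2 and the transcription factor gene Tfcp2l1 rested on single libraries: adjusted p was 0.051 for Nr3c2 without lithium library 1, and for Tfcp2l1 0.0816 without control library 1 and 0.0674 without control library 2. On set means 7 of the 20 genes fell: Aqp2, Aqp4, Scnn1b, Kcnj1, Fxyd4, Hsd11b2 and Ptges. In 7 of the 15 genes that fell, 46.7%, the highest of the 26 control values was in a 36 h control, which make up 11.5% of those controls. Over all 1105 genes that fell that share was 30.8%, and over all genes tested 14.6%.

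**Figure D2:**
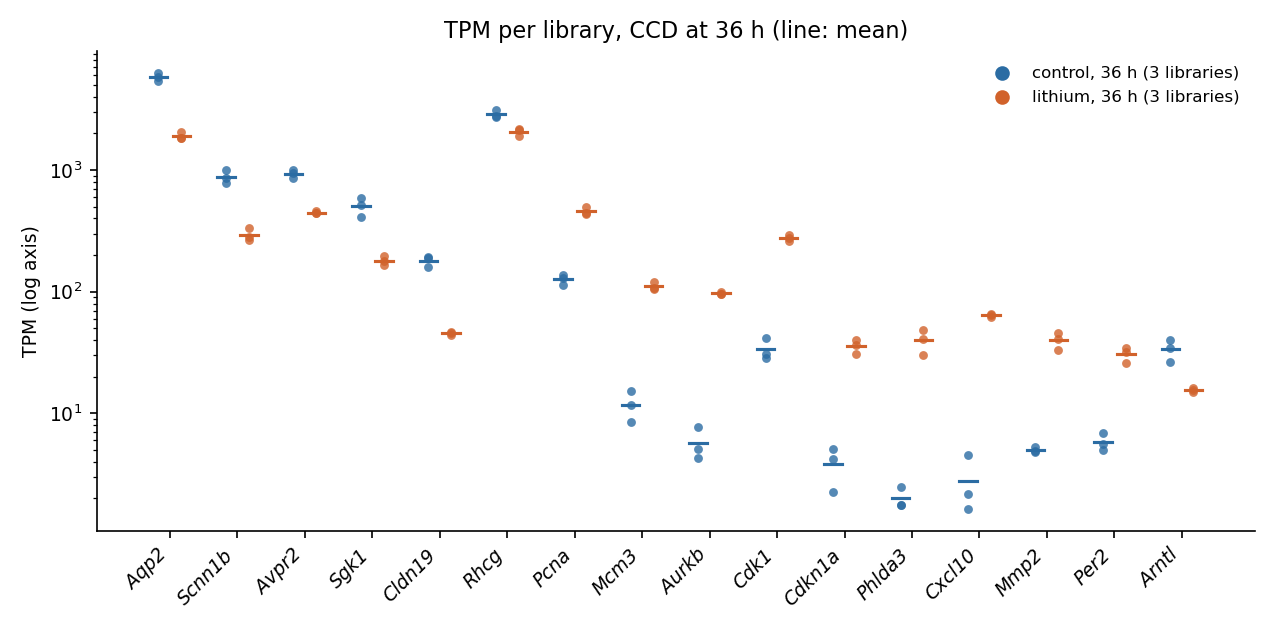
TPM of 16 genes (x axis) in each of the 6 libraries at 36 h on a log axis, blue for control and orange for lithium, with the mean of each group as a bar. The 6 genes on the left and Arntl on the right were lower with lithium and the 9 genes between them were higher, with no overlap of the groups in any of the 16.

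Sgk1, the aldosterone-induced kinase that keeps the sodium channel at the membrane, fell from 585, 512 and 409 TPM to 197, 165 and 177 TPM (−1.46 ± 0.17, adjusted p = 4.5e-06). The lithium values lay below all 26 controls. Other targets of corticosteroid receptors rose instead: Tsc22d3 by 0.93, Usp2 by 1.07 and Fkbp5 by 0.60, while Ddit4 differed by −1.56. Of the 14 mineralocorticoid and glucocorticoid response genes tested, 4 rose, near the 23.7% of all genes, and 7 fell, against 8.5%. Their median was −0.11, and 1 (Hsd11b2) was called on set means. Cldn19, a claudin of the tight junction, fell from 189, 194 and 158 TPM to 44.0, 46.6 and 45.5 TPM (−1.96 ± 0.11, adjusted p = 2.4e-09), and Cldn8, which forms the chloride path of the collecting duct, from between 1149 and 1343 TPM to between 729 and 766 TPM (−0.72). Cldn3 rose by 0.64. Among 10 claudin and tight junction genes 3 rose, near the share of all genes, and 2 fell, and both falls held on set means.

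Vasopressin signalling was lower at its receptor and mixed further down. Avpr2, the V2 receptor, had 944, 1009 and 854 TPM in controls and 440, 444 and 457 TPM with lithium (−1.06 ± 0.10, adjusted p = 7.5e-07), without overlap. Its call was lost on set means (adjusted p = 0.070), and in all 123 of the 217 named genes called at 36 h lost theirs there. Of 22 vasopressin and cAMP genes tested, 8 fell and 3 rose, with a median of −0.18. The falls included phosphodiesterases Pde3b (−0.96) and Pde4b (−0.88), the anchoring protein gene Akap7 (−0.73), the G protein regulator Rgs2 (−0.61) and Prkar1a (−0.26), a regulatory subunit of protein kinase A. Adcy3, an adenylyl cyclase at low level, rose from between 0.68 and 1.10 TPM to between 3.38 and 4.27 TPM (1.33 ± 0.20, adjusted p = 9.8e-05). Adcy6, the cyclase tied most closely to vasopressin in this segment, differed by 0.46 and was not called (adjusted p = 0.089). Crtc2, a coactivator of CREB, rose by 0.52. Prostaglandins oppose vasopressin in the duct, and of 12 prostaglandin genes 5 fell and 1 rose: Ptges, a prostaglandin E2 synthase, differed by −0.53, Ptgs1, cyclooxygenase 1, by −0.70 and Ptger1, a receptor, by −0.77.

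Intercalated cell genes changed less. Of 22 tested, 6 fell and 0 rose, with a median of −0.15, and none was called on set means. Rhcg, an ammonia channel, had 2751, 3108 and 2776 TPM in controls and 2119, 2190 and 1906 TPM with lithium (−0.47 ± 0.11, adjusted p = 0.0027). With quantile normalization that call was lost. Avpr1a, the V1a receptor found in these cells, differed by −0.49 (adjusted p = 0.00059). Slc26a4, the chloride-bicarbonate exchanger pendrin of type B cells, fell from between 1036 and 1354 TPM to between 730 and 956 TPM (−0.55, adjusted p = 0.011), below all controls of any time, although its adjusted p was 0.0527 without control library 3 and 0.0528 without lithium library 2. Calls of the other 3 genes depended on several libraries. Without each of control libraries 1 and 2 and the 3 lithium libraries, Foxi1 had adjusted p between 0.0814 and 0.179. Hepacam2 had 0.0659 to 0.0741 without control library 1 or 3 or lithium library 1 or 2, and Insrr had 0.075 to 0.108 without the same libraries. Without single libraries 2 to 5 members of the list fell, the fewest without lithium library 2 (2), control library 1 and lithium library 1 (3 each). The list fell in 9 members with median-of-ratios scaling and in 4 with quantile normalization, where 2004 and 2440 of all 12998 genes fell.

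**Figure D3:**
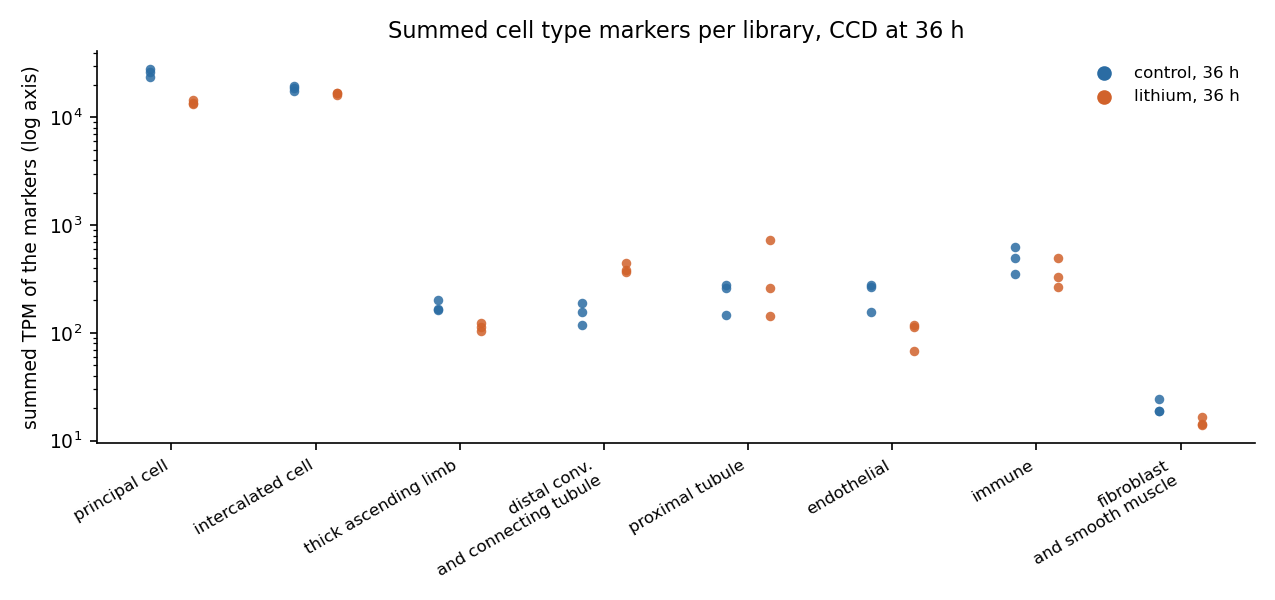
Summed TPM of the markers of 8 cell types in each library at 36 h (log axis), blue for control and orange for lithium. Principal and intercalated cell markers each sum to at least 13420 TPM in every library, and the markers of each other cell type to at most 725 TPM.

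The label CCD was checked against cell type markers, and those of principal and intercalated cells dominated in all 6 libraries. The 20 principal cell markers summed to 23689 to 28369 TPM in controls and to 13420 to 14608 TPM with lithium, and the 23 intercalated markers to 17529 to 19452 TPM and 16008 to 16792 TPM. Markers of the other cell types were lower by more than an order of magnitude. The 11 thick ascending limb markers summed to 164 to 201 TPM in controls and 104 to 124 TPM with lithium, the 18 proximal tubule markers to 147 to 275 TPM and 142 to 725 TPM, the 11 endothelial markers to 156 to 279 TPM and 67.7 to 119 TPM, and the 16 immune markers to 353 to 628 TPM and 264 to 499 TPM. The 7 distal convoluted and connecting tubule markers moved the other way, from 118 to 191 TPM to 365 to 441 TPM, and the 11 fibroblast and smooth muscle markers summed to 18.7 to 24.2 TPM and 13.9 to 16.7 TPM. Calb1, calbindin of the connecting tubule, made up most of the distal sum, with 137, 162 and 97.1 TPM in controls and 332, 353 and 407 TPM with lithium. Its difference of 1.48 was not called (adjusted p = 0.091). No more than 4 members of any list were listed at 0 in a library, among them Cd79b and Cd3e of lymphocytes in lithium libraries 1 and 3.

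Few single markers of other cell types were called. In thick ascending limb genes 3 of 10 fell, among them Umod, uromodulin, from 49.0, 70.2 and 64.3 TPM to 34.0, 36.1 and 15.5 TPM (−1.15, adjusted p = 0.0045), and 2 rose, among them Fxyd6 by 1.51. Of 10 endothelial genes 2 fell: Egfl7 by −1.10 (adjusted p = 0.0076) and Plvap by −1.41 (adjusted p = 0.023, and 0.0872, 0.0648 and 0.101 without control library 1, control library 2 and lithium library 3). Of 16 proximal tubule genes 1 rose, the gluconeogenic enzyme gene Pck1, in groups that overlapped (19.9, 3.69 and 7.30 TPM against 24.6, 92.6 and 19.4 TPM), and its adjusted p was 0.183 without control library 2, 0.111 without control library 3, 0.0596 without lithium library 1 and 0.229 without lithium library 2. S100g, calbindin D9k, was the 1 of 5 distal markers called (0.70, adjusted p = 0.018), with 0.0593, 0.0562, 0.0641 and 0.0831 without control libraries 1 and 3 and lithium libraries 1 and 3, and neither other scaling called it. None of the 16 immune genes was called, 3 were lower with quantile normalization, and 7 of the 10 endothelial genes were lower with it. The part of these cells in the gene groups described here was not tested.

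Genes of S phase entry and DNA replication rose together. All 36 tested were higher with lithium, against 23.7% of all genes, with differences from 0.60 to 3.66 and a median of 2.39. Their lithium values at 36 h exceeded all 26 control CCD libraries in each of the 36, and 33 were higher on set means. Mcm3 had 11.8, 15.2 and 8.53 TPM in controls and 108, 121 and 106 TPM with lithium (3.16 ± 0.18, adjusted p = 1.8e-09). Mcm5 rose from 11.9, 15.7 and 12.6 TPM to 101, 132 and 103 TPM (2.97 ± 0.16, adjusted p = 1.5e-09). These are the helicase genes whose promoters, printed above, carry the E2F-type site. Pcna, the sliding clamp of DNA polymerase, was already at 129, 114 and 138 TPM in controls and reached 437, 498 and 440 TPM (1.84 ± 0.10, adjusted p = 1.1e-09).

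Enzymes that make DNA precursors and genes of origin licensing showed the same separation of groups. Rrm2, the regulated subunit of ribonucleotide reductase, had the largest rise of the list, from 6.65, 8.67 and 7.41 TPM to 109, 102 and 110 TPM (3.66 ± 0.17, adjusted p = 3.7e-10). Tk1, thymidine kinase, rose from 26.2, 24.1 and 33.0 TPM to 197, 233 and 209 TPM (2.90 ± 0.13, adjusted p = 2.2e-10). Cdc6, which loads the helicase, rose by 3.36 and Ccne1, cyclin E1, by 2.88. The smallest rises were in Tyms, thymidylate synthase (73.4, 86.9 and 83.4 TPM against 125, 127 and 118 TPM, 0.60, adjusted p = 0.0003) and the transcription factor gene E2f2 (0.67, adjusted p = 0.011, and not called with quantile normalization). Both still lay above all 26 controls.

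Genes of mitosis rose more. All 39 G2/M, spindle and kinetochore genes tested were higher with lithium, by 2.12 to 3.90 with a median of 3.22, all 39 exceeded the 26 controls, and all 39 were higher on set means. Aurkb, the kinase that corrects chromosome attachment, rose from 5.13, 4.31 and 7.72 TPM to 95.0, 96.6 and 99.2 TPM (3.90 ± 0.21, adjusted p = 1.4e-09). Cdk1, the kinase that drives entry into mitosis, rose from 28.8, 41.4 and 30.6 TPM to 275, 260 and 295 TPM (3.02 ± 0.19, adjusted p = 5.4e-09). Its partner Ccnb1, cyclin B1, went from 14.8, 11.7 and 9.24 TPM to 129, 129 and 160 TPM (3.46). Controls and lithium libraries did not come near each other in any of these genes. Prc1 rose by 3.86, Kif23 by 2.95 and Spc25 by 3.26, the 3 genes whose promoters are printed above with a CHR. Ube2c, which tags mitotic cyclins for destruction, rose by 3.84, Top2a, topoisomerase of mitotic chromosomes, by 3.59, Plk1 by 3.37 and the proliferation marker Mki67 from 2.66, 3.17 and 1.18 TPM to 22.1, 22.1 and 23.6 TPM (2.87). Foxm1, a transcription factor of G2/M genes, rose by 3.12.

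**Figure D4:**
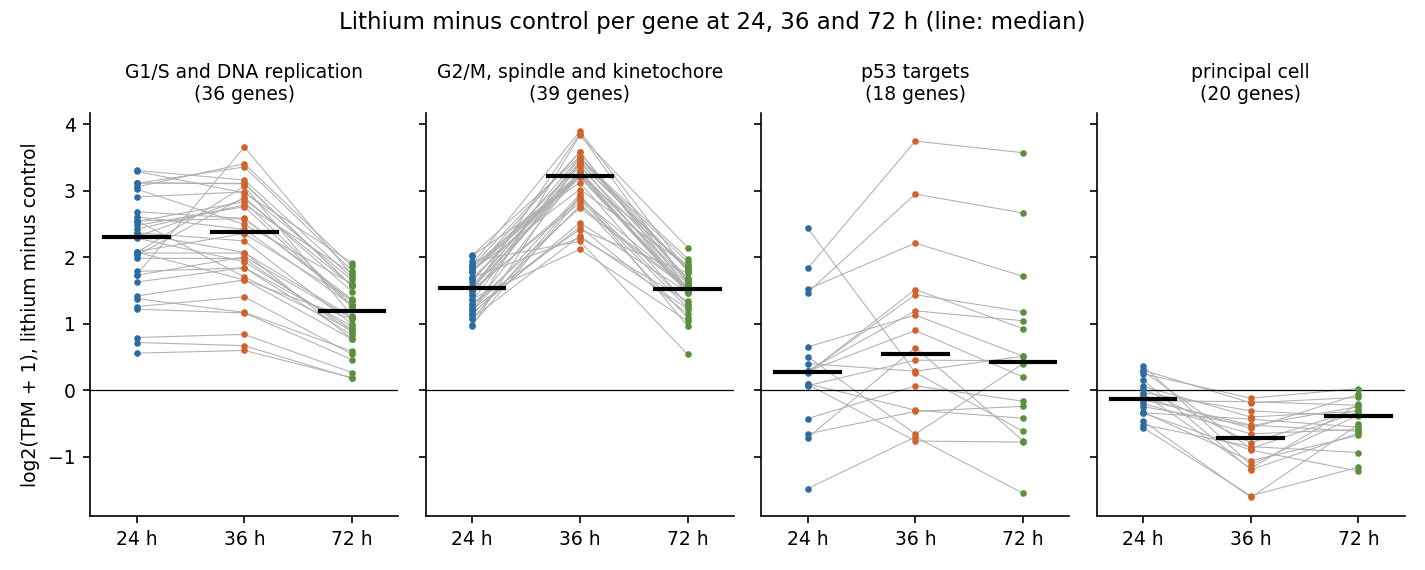
Difference in log2(TPM + 1), lithium minus control, at 24, 36 and 72 h for the genes of 4 lists; points are coloured by time, each grey line joins the 3 values of 1 gene and the black bars are list medians. G2/M genes have medians of 1.54, 3.22 and 1.53 at 24, 36 and 72 h, and G1/S genes 2.30, 2.39 and 1.19.

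Tests of the difference between effects set the G2/M genes apart from the G1/S genes in time. Over all genes, the lithium effect at 36 h differed from that at 24 h in 1059 genes, 8.15%, and from that at 72 h in 436 of 13417 genes, 3.25%. Of the 39 G2/M genes, 33 had a larger effect at 36 h than at 24 h and 35 a larger one than at 72 h. Of the 36 G1/S genes, 2 (Rrm2 and Tk1) had a larger effect at 36 h than at 24 h and 1 (Prim1, a primase subunit) a smaller one, while 24 had a larger effect at 36 h than at 72 h. For Aurkb the effect at 36 h exceeded that at 24 h by 2.00 (adjusted p = 0.00047) and that at 72 h by 2.10 (adjusted p = 1.4e-05). Much of the gap to 24 h lay in the controls: the median G2/M gene was 1.20 lower in 36 h than in 24 h controls on the log2 scale and 0.44 higher in 36 h than in 24 h lithium libraries. Against 72 h the same medians were 0.85 lower in controls and 0.81 higher with lithium. For 25 of the 39 genes, 64.1%, the lowest of the 26 control values was in a 36 h control, against 9.08% of all 3084 genes that rose and 4.79% of all genes tested. Without single libraries 28 to 32 G2/M genes differed from 24 h. From 72 h, 22 differed without control library 3 or lithium library 3 and 26 to 31 without each of the others. Of the G1/S genes 14, 15 and 16 differed from 72 h without lithium library 2, control library 1 and control library 3, and 19 to 22 without each of the others. Each early group is a single set of libraries. On set means the difference for Aurkb was again 2.00 to 24 h (adjusted p = 0.52) and was 2.08 to 72 h (adjusted p = 0.21), and no gene of either list was called. Over all genes on set means, 6 were called between 36 and 24 h and 6 between 36 and 72 h.

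Regulators of the G1 phase moved in both directions. Ccnd1, cyclin D1, rose from 41.6, 33.8 and 27.3 TPM to 110, 120 and 87.3 TPM (1.61 ± 0.23, adjusted p = 6.4e-05). Its kinase partners split: Cdk4 rose by 0.79 and Cdk6 differed by −1.05, while Cdk2, partner of cyclin E, rose by 1.26. Inhibitors rose with them. Cdkn2c, which blocks the cyclin D kinases, rose by 1.98 and Cdkn1c by 1.18, at a low level of 4.36 to 5.26 TPM. Of the 16 D cyclin, kinase, inhibitor and pocket protein genes, 8 rose and 3 fell, with a median of 0.52. Rises of Cdkn1a, Cdkn2c, Cdk2 and Cdk4 held on set means.

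The p53 target list rose in part. Of 18 genes tested 9 rose and 3 fell, with a median of 0.55, and the 9 that rose exceeded all 26 controls. Cdkn1a, which encodes the inhibitor p21, went from 2.25, 5.08 and 4.24 TPM to 39.9, 36.4 and 30.5 TPM (2.95 ± 0.21, adjusted p = 1.7e-08). Phlda3, an inhibitor of Akt, went from 1.76, 1.76 and 2.49 TPM to 40.8, 48.7 and 30.1 TPM (3.75 ± 0.23, adjusted p = 5.3e-09). No lithium value of either gene came within reach of a control value. Ccng1 rose by 1.44, Aen by 1.52, Bax, a pore former of apoptosis, by 1.20 and Mdm2, which degrades p53, by 0.90. Sesn1 and Btg2 differed by −0.76 and −0.70, and Pmaip1, another apoptosis gene, overlapped between groups (0.27, adjusted p = 0.35). Of the 18, 6 had larger effects at 36 h than at 24 h and 3 had smaller ones, against 8.15% of all genes differing either way. On set means none of the 18 differed from 24 h. Among those that rose at 36 h the effect was larger for Ccng1 by 1.17, Phlda3 by 1.92, Cdkn1a by 1.48, Bax by 0.90 and Aen by 1.26. None of the 18 differed between 36 and 72 h. On set means 7 of the 18 were higher with lithium than in controls at 36 h.

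DNA damage checkpoint and repair genes, many of which act at the replication fork, rose as well. All 17 tested rose, with a median of 2.35, 16 exceeded all 26 controls and 14 were higher on set means. Fancd2, of the Fanconi anemia repair pathway, rose from 1.25, 3.40 and 2.60 TPM to 23.0, 29.9 and 27.4 TPM (3.07 ± 0.25, adjusted p = 8.5e-08). Brca1 rose by 2.35 and the histone gene H2afx by 1.92. Chek1, the checkpoint kinase, was high in controls (86.9, 94.8 and 96.7 TPM) and rose least, to 130, 121 and 113 TPM (0.38, adjusted p = 0.0049). It was the 1 member inside the range of the controls.

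Cytoskeletal, nucleolar and chaperone genes rose beside the cell cycle genes. Of 26 tubulin, actin and actin-binding genes 17 rose and 0 fell, with a median of 0.55. Tubb5, a beta tubulin, rose from 106, 103 and 88.3 TPM to 649, 705 and 615 TPM (2.72 ± 0.12, adjusted p = 2.2e-10), Tuba1b, an alpha tubulin, by 2.08 and Stmn1, which takes microtubules apart, by 2.53. Tubb6 rose from 5.73, 6.86 and 3.75 TPM to 130, 122 and 123 TPM (4.32 ± 0.30, adjusted p = 1.4e-08). These 4 also had larger effects at 36 h than at either 24 or 72 h. On set means only the difference of Stmn1 from 72 h held. Pdlim1 rose by 3.56 and Flna, filamin A, by 1.47. Of 17 ribosome biogenesis genes 15 rose and 0 fell (median 0.70), among them Nop56 (1.27), Nop58 (1.07) and Fbl, fibrillarin (1.23), with 12 rising under either other scaling and 3 on set means. Of 13 heat shock genes 8 rose and 0 fell (median 0.45): Hspa8 rose by 0.95, Hspd1 by 0.79 and Hsp90aa1 by 1.28, the last of these also on set means. Under the other scalings 1 heat shock gene fell.

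Several chemokines rose. Cxcl10, a chemokine for T cells, was at 4.54, 2.19 and 1.63 TPM in controls and 64.4, 62.2 and 65.1 TPM with lithium (4.17 ± 0.46, adjusted p = 2.8e-06). Ccl20, a chemokine for dendritic and T cells, went from 0.11, 0.63 and 2.05 TPM to 45.3, 31.0 and 57.7 TPM (4.65 ± 0.78, adjusted p = 0.00026). Both held on set means, but Ccl20 at 36 h stayed inside the range of the 26 controls, because a 24 h control reached 32.0 TPM. Cxcl16 rose by 1.66, Csf1 by 1.24 and Cxcl11 by 1.73, and of 11 chemokine genes tested 7 rose and 1 fell, with a median of 1.24. With either other scaling 5 rose.

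The NF-kB, interferon-stimulated and antigen processing lists had lower medians than the chemokines. In the NF-kB list 7 of 21 members rose and 1 fell (median 0.45), and none was called on set means. Nfkb2 rose from 16.7, 16.3 and 15.9 TPM to 36.8, 39.8 and 36.4 TPM (1.16 ± 0.11, adjusted p = 7.6e-07), Relb by 1.01, the survival factor Birc3 by 1.41, Bcl3 by 1.24 and the adhesion molecule Icam1 by 1.02. Nfkbiz differed by −1.08. Interferon-stimulated genes had a median of 0.21, near that of all genes, with 6 of 22 higher, near the 23.7% of all genes, and 0 lower. Among the 6 were Ifit2 (1.39), Isg15 (0.93) and Ubd (1.51). The count was 4 without control library 1 or 3 or lithium library 2 or 3, and 0 on set means. With median-of-ratios scaling 4 of these genes rose and 2 fell. Of 8 antigen processing genes 6 rose and 1 fell (median 0.71). Tapbp, tapasin, rose from 94.0, 84.3 and 73.3 TPM to 212, 233 and 204 TPM (1.36 ± 0.12, adjusted p = 2e-07), Psmb10 of the immunoproteasome by 1.08 and B2m by 0.52. For B2m the effect was smaller at 36 h than at 72 h by 1.04 (adjusted p = 0.0032, and 0.41 on set means). Immune marker sums, as given above, were 353 to 628 TPM in controls and 264 to 499 TPM with lithium, and their part was not tested.

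Several STAT3 targets and immediate early genes were lower with lithium, and 36 h controls were high for the series in most of them. Socs3, the feedback inhibitor of STAT3 signalling, had 194, 114 and 79.7 TPM in controls and 10.9, 17.4 and 17.0 TPM with lithium, the largest fall among genes named by rule (−2.95 ± 0.48, adjusted p = 0.00019). In the 12, 24 and 72 h controls it ranged from 0.06 to 77.2 TPM, so each 36 h control was above each of them. Of 13 STAT3, cytokine receptor and C/EBP genes 5 fell and 0 rose: Socs3, Pim1 (−1.28), Cebpd (−0.87), Cebpb (−0.69) and Pim3 (−0.50). The AP-1 and immediate early list had 3 members that rose and 6 that fell among 19 tested, with a median of 0.06. Dusp1, a phosphatase of MAP kinases, rose from 80.1, 91.7 and 82.1 TPM to 234, 220 and 195 TPM (1.34 ± 0.17, adjusted p = 1.3e-05) and Dusp6 by 1.17, while Ier3 differed by −1.03 and Dusp2 by −1.40. Calls of Jun (−0.58), Junb (−0.61) and Zfp36 (−0.70) were lost without single libraries, with adjusted p of 0.146, 0.0543 and 0.111 without control library 1. For Jun this also held without control library 2 (0.103) and lithium libraries 1 to 3 (0.0682, 0.0716 and 0.0826), and for Zfp36 without control library 2 (0.0557) and lithium libraries 2 and 3 (0.0585 and 0.0767). Fos was at 3066 to 4805 TPM in controls and 2759 to 3050 TPM with lithium and was not called (−0.45, adjusted p = 0.088). Without control library 1 only 3 members of the list fell, without control library 2 and lithium libraries 2 and 3 only 4 each. For 5 of the 6 genes that fell, the highest of the 26 controls was a 36 h control, against 30.8% of all genes that fell. The median gene of this list was 1.07 higher in 36 h than in 24 h controls and 1.61 higher in 36 h than in 24 h lithium libraries.

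Of 10 genes of the EGF receptor family 3 rose, all of them ligands, and 0 fell, with a median of 0.08. That is near the 23.7% of all genes that rose, and on set means none was called. Hbegf went from 10.4, 8.75 and 9.27 TPM to 22.6, 32.5 and 19.9 TPM (1.28 ± 0.15, adjusted p = 7.9e-06), Tgfa rose by 0.82 and Nrg1 by 0.89, and all 3 exceeded the 26 controls.

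Injury genes showed a mixed picture. Of 19 tested 8 rose and 3 fell, against 23.7% and 8.5% of all genes, with a median of 0.45. Krt8, a simple epithelial keratin, rose from 423, 426 and 362 TPM to 946, 949 and 974 TPM (1.25 ± 0.10, adjusted p = 8.5e-08), its partner Krt18 by 0.80, and Krt19 from 1.07, 2.38 and 12.2 TPM to 38.8, 37.6 and 31.7 TPM (3.03). Tnfrsf12a, the receptor of TWEAK, rose from 50.0, 46.6 and 51.7 TPM to 203, 218 and 179 TPM (1.99 ± 0.10, adjusted p = 1e-09). Lcn2, the injury marker NGAL, stood at 3.00, 9.51 and 1.35 TPM in controls and 14.7, 20.9 and 11.1 TPM with lithium (1.80, adjusted p = 0.0028). Clu and Timp1 overlapped between the groups at 36 h (−0.35 and 0.53, adjusted p = 0.10 and 0.11). Both, and Lcn2, differed sharply from 24 h, where mean levels with lithium were 6620, 237 and 291 TPM for Clu, Timp1 and Lcn2. Their effects at 36 h were lower than at 24 h by 6.93, 5.03 and 4.06 on the log2 scale. Of the 19 genes, 3 had larger and 6 smaller effects at 36 h than at 24 h, against 8.15% of all genes differing either way. Mmp2, a gelatinase that cleaves matrix, rose from 4.81, 5.30 and 4.89 TPM to 32.9, 45.7 and 40.9 TPM (2.75 ± 0.19, adjusted p = 1.7e-08) and its inhibitor Timp2 differed by −0.64. In their list of 13 matrix and proteolysis genes 3 were higher and 1 lower, both near the shares of all genes.

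The circadian clock genes were shifted between the groups. Of 17 tested 11 rose and 4 fell, with a median of 0.70. Per2, a repressor of the clock, rose from 6.95, 4.97 and 5.57 TPM to 25.9, 34.6 and 32.2 TPM (2.22 ± 0.17, adjusted p = 6.3e-08) and lay above all 26 controls. Arntl, the activator BMAL1, fell from 34.6, 40.1 and 26.5 TPM to 14.9, 15.5 and 16.1 TPM (−1.05 ± 0.13, adjusted p = 1.3e-05), and Npas2, its partner, differed by −1.24. Other repressors and output factors rose: Cry1 by 0.92, Cry2 by 1.05, Per3 by 0.72, Dbp by 0.75, Tef by 1.03 and Ciart by 1.92, from at most 0.24 TPM to between 2.06 and 4.17 TPM. Nr1d1, whose product represses Arntl, differed by −0.47 and was not called (adjusted p = 0.069), although both other scalings called it lower. Clock itself overlapped between groups (0.29, adjusted p = 0.29).

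**Figure D5:**
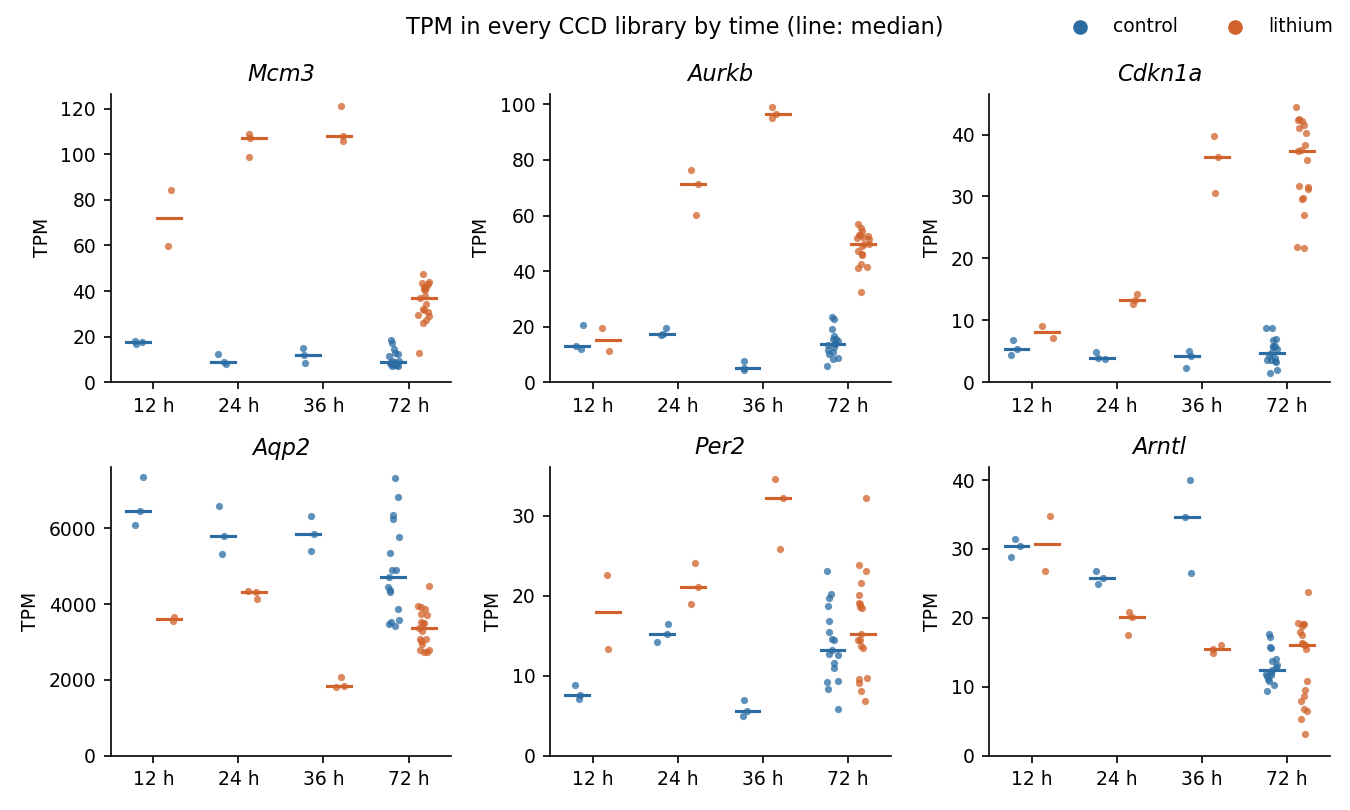
TPM of 6 genes in each CCD library at 12, 24, 36 and 72 h (linear axes from 0), blue for control and orange for lithium, with group medians as bars. Lithium libraries at 36 h hold the lowest Aqp2 and the highest Aurkb of all CCD libraries. The lowest control value of Per2 and the highest of Arntl, 4.97 and 40.1 TPM, are both in 36 h controls.

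As the plot of levels by time shows, the clock difference at 36 h had a share on the control side. For Per2 the median was 5.57 TPM in 36 h controls and 7.58, 15.2 and 13.2 TPM in 12, 24 and 72 h controls. With lithium it was 32.2 TPM at 36 h and 17.9, 21.1 and 15.2 TPM at 12, 24 and 72 h. For Arntl the 72 h controls, at 9.45 to 17.6 TPM, spanned the 36 h lithium values. The 12 h controls, at 28.9 to 31.4 TPM, lay within the range of the 36 h controls, 26.5 to 40.1 TPM. For all 4 clock genes that fell and for 4 of the 11 that rose, the most extreme of the 26 control values was in a 36 h control, against 30.8% and 9.08% of all genes that fell and rose. The hour of dissection is not in the labels. Effects at 36 h were higher than at 24 h in 8 clock genes and lower in 3, and higher than at 72 h in 7, Per2 by 1.77 and 2.03. The count of 8 was also 8 without each library, the 3 lower effects fell to 2 without control library 3 and to 0 without each of the others, and the 7 fell to between 3 and 5. On set means Per2 alone of the 17 was called between the groups at 36 h, and none of the differences of effects was. An E-box (CACGTG, its own reverse complement) stood in 3 of 15 clock promoters, against 9.39% of promoters of tested genes. Shown with it in capitals are Tef (chr7:115206577-115206876, plus strand), a PAR-type transcription factor of clock output, and Ciart (chr2:186112197-186112496, minus strand), a repressor of CLOCK and BMAL1, which held 3.
Tef: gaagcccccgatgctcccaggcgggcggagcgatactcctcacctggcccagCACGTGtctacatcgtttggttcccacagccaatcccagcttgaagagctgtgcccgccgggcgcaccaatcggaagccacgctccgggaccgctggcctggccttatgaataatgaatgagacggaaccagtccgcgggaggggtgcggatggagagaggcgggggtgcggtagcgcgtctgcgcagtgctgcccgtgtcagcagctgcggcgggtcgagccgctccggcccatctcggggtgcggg
Ciart: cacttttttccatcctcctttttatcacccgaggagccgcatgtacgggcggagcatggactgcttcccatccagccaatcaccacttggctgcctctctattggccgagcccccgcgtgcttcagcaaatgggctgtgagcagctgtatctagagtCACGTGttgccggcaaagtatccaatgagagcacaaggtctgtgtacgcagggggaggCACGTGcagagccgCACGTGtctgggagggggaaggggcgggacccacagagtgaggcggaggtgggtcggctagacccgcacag

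Metabolic genes differed by list, with the fewest calls in oxidative phosphorylation. Of 27 nuclear genes of oxidative phosphorylation 1 rose and 1 fell, with a median of 0.00. The rise was lost without each library and the fall without each other than control library 2. With median-of-ratios scaling 8 fell, where 2004 of all 12998 genes did. With quantile normalization 4 rose, where 2025 of all genes did. Of 15 glycolysis genes 4 rose and 5 fell, against 23.7% and 8.5% of all genes: Gapdh rose by 0.57, Ldha differed by −0.34, and Slc2a1, the glucose transporter GLUT1, fell from 173, 183 and 182 TPM to 78.4, 86.7 and 84.1 TPM (−1.10 ± 0.10, adjusted p = 2.4e-07). Without control library 1 only 2 glycolysis genes fell, and without control library 2 and lithium libraries 2 and 3 only 3 each. In 15 genes of fatty acid oxidation 2 rose and 3 fell, with Pdk4, which closes the entry of pyruvate to the citrate cycle, higher by 1.14. Sterol synthesis genes fell in 7 of 19 and rose in 2, against 8.5% and 23.7% of all genes (median −0.21). Insig1, a sensor of sterol level, differed by −1.38, Msmo1 by −0.80 and Hmgcs1 by −0.68. The 2 that rose became 0 without lithium library 2 and 1 without each of the others except control library 2. Of 10 hypoxia-inducible genes 2 rose, 1 without control library 3 or lithium library 1 or 2, and 2 fell. The falls were Slc2a1 and Ndrg1, the latter from 1219, 1411 and 1027 TPM to 289, 311 and 342 TPM (−1.95 ± 0.10, adjusted p = 1.2e-09), below all controls, while Adm, adrenomedullin, rose by 1.07.

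Stress and signalling lists were also mixed, read against the 23.7% of all genes that rose and the 8.5% that fell. Of 20 unfolded protein response genes 5 rose and 2 fell, both near the shares of all genes. Ddit3, the factor CHOP, rose from 127, 112 and 113 TPM to 241, 232 and 252 TPM (1.04 ± 0.11, adjusted p = 2.5e-06). Creld2 rose by 0.75, and the chaperone Calr differed by −0.58. In the Nrf2 and antioxidant list 2 of 14 rose, with Txnrd1 at 0.69, and 4 fell, with Gpx2 at −0.96. Only 1 rose without each library other than control library 3. Of 9 Wnt and beta-catenin genes 2 rose, near the share of all genes, and 2 fell, 1 without control library 3 or lithium library 1. Apcdd1, a membrane inhibitor of Wnt, fell from 71.8, 87.1 and 77.4 TPM to 21.6, 21.2 and 24.3 TPM (−1.77 ± 0.14, adjusted p = 1e-07). Among 11 lithium-sensitive enzymes and inositol genes 1 rose and 2 fell: Inpp1, an inositol phosphatase that lithium inhibits, differed by −0.58, and Gsk3b, the kinase that lithium inhibits, overlapped between groups (−0.19, adjusted p = 0.40). None rose without control library 1 or 3 or lithium library 2 or 3, only 1 fell without control library 1 or 2 or lithium library 1 or 2, and on set means none was called. Of 16 TGF-beta, BMP and Id genes 2 fell, near the share of all genes, and 0 rose, with Id2 at −0.59. Only 1 fell without control library 1 or 3 or lithium library 1 or 3. Among 23 collecting duct transcription factor and Notch genes 3 rose and 5 fell, with Hes1, a Notch target, at −0.64. Leaving out single libraries left 0 to 3 of these that rose, with 0 without control library 3 or lithium library 2, and 1 to 6 that fell, with 1 without control library 2 and 2 without control library 1 or lithium library 1. Osmotic response genes rose in 2 of 7 and iron genes in 2 of 7, near the 23.7% of all genes, and neither list had a member that fell. The osmotic count was 1 without each library other than control library 1, and the iron count was 1 without control library 1 or lithium library 2 or 3. On set means no gene of either list was called.

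The largest single changes, the 15 rises and 15 falls of greatest size by rule, lay partly outside these lists. Ndufs5, a subunit of respiratory complex I, rose from 3.16, 4.81 and 2.80 TPM to 224, 211 and 169 TPM (5.48 ± 0.39, adjusted p = 2.5e-08). In all other CCD libraries of the series, with lithium or without, it was at most 7.70 TPM. Ndufs1 and Ndufv1, other subunits of the complex, differed by −0.20 and −0.03 and were not called. Cyr61, a matrix-associated growth factor, rose by 4.41, RT1-T24-1, a class I histocompatibility gene whose reads near-identical RT1 copies can share, by 4.21, and Crb2, a polarity gene, from at most 0.09 TPM to between 16.0 and 21.2 TPM (4.18). RT1-T24-1 is 1 of the 8 genes that mark the sets of libraries, and Crb2 was also at a mean of 18.3 TPM in 24 h controls. Genes of dividing cells made up most of the rest: Ckap2l, Gtse1, Tacc3, Pbk and Ankle1 rose by 3.76 to 4.08.

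Among the largest falls were Agtr1a, the angiotensin II receptor, from 9.36, 15.4 and 6.80 TPM to 0.91, 0.88 and 0.36 TPM (−2.69 ± 0.36, adjusted p = 2.4e-05), Alox15b (−2.61), a lipoxygenase, and Slc4a5 (−2.28), a sodium bicarbonate cotransporter. Dnase1 fell from 846, 804 and 740 TPM to 173, 233 and 126 TPM (−2.20) and Rasd1, a small G protein, from 296, 277 and 306 TPM to 68.9, 59.0 and 63.3 TPM (−2.19 ± 0.10, adjusted p = 4.5e-10). The remaining large falls were Ly6g6e, Shisa2, Ttll3, Gdpd2, Hyal1 and Anxa9, by −2.23 to −1.93. Of the 11 genes named here, only Ly6g6e and Gdpd2 lay below all 26 controls. Control means of Agtr1a were 10.5 TPM at 36 h and 1.71 to 2.59 TPM at the other times, and those of Alox15b 15.8 TPM and 1.99 to 2.83 TPM. Dnase1 averaged 797 TPM in 36 h controls and 226 to 337 TPM in the others, and it was not called on set means (adjusted p = 0.12), nor were Ly6g6e (0.12) and Hyal1 (0.14).

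Measured in TPM rather than in fold, the falls were carried by abundant genes of the duct. Besides Aqp2, Aqp3, Hsd11b2, Kcnj1 and Rhcg these were Fxyd2, the gamma subunit of the sodium pump (from between 2936 and 4543 TPM to between 1471 and 2158 TPM, −0.95), Degs2, an enzyme of sphingolipid synthesis (−0.76), Ctsh, a lysosomal protease (−0.65), and Cd24, a surface protein (−0.96). Ndrg1, given above, was also among them. For the other 5 named by this rule the call depended on single libraries or on scaling. Mt-atp6, a mitochondrial gene, had adjusted p between 0.0501 and 0.127 without control library 1 or 3 or lithium library 2 or 3, S100a11 had 0.0685 to 0.114 without control library 1 or 2 or lithium library 2 or 3, Pebp1 had 0.0582 to 0.0848 without control library 1 or 3 or lithium library 2, and Itm2b had 0.0523 to 0.084 without control library 1 or 3 or lithium library 1 or 2. Mt-nd1 kept its call without each library (−0.33, adjusted p = 0.011). With quantile normalization Mt-atp6, Mt-nd1, Pebp1 and Itm2b were no longer lower.

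The principal cell genes also differed in time. Their effect was lower at 36 h than at 24 h in 9 of 20 genes and lower than at 72 h in 3. For Aqp2 the difference of effects was −1.15 against 24 h (adjusted p = 3.4e-05) and −1.10 against 72 h (adjusted p = 0.0029), for Fxyd4 −1.13 and −0.97, and for Hsd11b2 −1.17 and −0.55. The last of these was not called without control library 1 (adjusted p = 0.0562), control library 2 (0.0718) or lithium library 1 (0.0691). The median principal cell gene was 0.16 higher in 36 h than in 24 h controls and 0.55 lower in 36 h than in 24 h lithium libraries. Most of the gap to 24 h thus lay on the lithium side. Against 72 h the same medians were 0.45 higher in controls and 0.14 higher with lithium, so the lithium libraries were not lower there. Over all genes tested the medians against 72 h were 0.08 and 0.24 higher. Intercalated cell genes differed between 36 and 24 h in 3 of 22 (2 higher, 1 lower) and between 36 and 72 h in 1. As with the G2/M genes, nearly all of these differences rest on sets of libraries that cannot be told apart from time.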

How the data were processed

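Gene levels were deposited as TPM values in a single table of the whole series with 32754 genes, estimated by the authors with STAR 2.5.2b and RSEM 1.2.31 on Rnor_6.0, per the submitters' processing notes. RSEM shares reads among near-identical copies, such as RT1 genes, and 595 gene names are listed more than once. Whether counting used strand is not given in the sources used here, so overlapping and antisense genes were not separated. TPM keeps no depth. The unit is scaled to a fixed total, so a large rise in some genes lowers all others.

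From these values log2(TPM + 1) was tested with limma 3.58.1 in R 4.3.3 with a mean-variance trend and Benjamini-Hochberg adjustment at 0.05. Genes with at least 1 TPM in at least 2 libraries were kept. The fit covered the 17 CCD libraries of 12, 24 and 36 h with 1 mean per group and a shared spread. Differences of effects between 36 h and 24 or 72 h were interaction terms, and the comparisons share no library. The fit on set means averaged the libraries of a set. On simulated data with 12998 genes, the fit recovered 84 of 100 genes changed by log2 1 and 99 of 100 changed by log2 2, none with the wrong sign, and called 7 unchanged genes. The changed genes were drawn from those with a mean log2(TPM + 1) above 2. Libraries were simulated independently, with no spread between sets, so the simulation cannot give the rate of false calls where sets differ.

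The 43 lists hold 747 symbols, of which 731 were matched and 661 tested. Members and lists were chosen with earlier results of these data known. Genes were named as list members, as the 15 largest rises and falls and the 15 largest falls in TPM among called genes with a symbol of their own (for the first of these whose higher group averaged 5 TPM or more), and as the 6 largest differences of effects in each direction. Some genes met by these rules are not reported here. Replicate numbers were checked for pairing: deviations of same-numbered control and lithium libraries correlated at −0.07, −0.04 and 0.03, so the numbers were not used to pair them. With 3 libraries a group this check cannot exclude a weak pairing. Alternatives were other pseudocounts, filters, scalings, samples in the fit, left-out libraries and a replicate block. The range of all 26 control CCD libraries was added after the data were seen. Promoters come from RefSeq (GRCr8) by symbol, and Rnor_6.0 coordinates were not used here. Python 3.11.15 with pandas 2.3.3, numpy 2.4.6 and matplotlib 3.10.9 was used for tables and figures.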

Additional observations from a re-analysis of the deposited data

Results flagged for a closer look

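The effect of lithium differed between 36 and 24 h in 1059 genes and between 36 and 72 h in 436 genes by the interaction term in limma. The genes below were among those with the largest differences between times. All differences are in log2(TPM + 1) and all levels are group means in TPM. Each early group is a single set of libraries, so a difference between times cannot be told apart from one between sets.

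Against 24 h, the effect on Crb2, a polarity gene, was higher at 36 h by 8.28. Its level was 0.0733 in control and 18.5 in lithium libraries at 36 h, and 18.3 and 0.113 at 24 h. Ndufs5 was higher by 5.64, with 3.59 and 201 at 36 h and 1.54 and 1.43 at 24 h. The chemokine gene Ccl20 differed by 5.60, Mx2, an interferon-induced GTPase, by 3.84 and Gpx3, a secreted glutathione peroxidase, by 3.83. Neither Mx2 nor Gpx3 was called at 36 h (0.92 and 1.41, adjusted p = 0.15 and 0.17), and their groups overlapped. At 24 h their effects were −2.91 and −2.42. Levels in control and lithium libraries at 24 h were 19.2 and 1.54 for Mx2 and 463 and 72.9 for Gpx3. For Gpx3 the call was lost without control library 2 or 3 or lithium library 1 or 2 (adjusted p of 0.0708, 0.0733, 0.0628 and 0.0763). Of the 16 proximal tubule genes 5 had a larger effect at 36 h than at 24 h and 0 a smaller one. Over all genes 8.15% differed. The 5 became 1 to 6 without single libraries and 0 on set means. The median proximal tubule gene was 2.44 lower in 36 h than in 24 h controls and 0.32 lower with lithium. The part of proximal tubule cells in the Gpx3 difference was not tested.

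Lower effects at 36 h than at 24 h were led by the secreted chaperone gene Clu, by −6.93, with 68.8 and 6620 at 24 h and 55.6 and 43.0 at 36 h. Timp1, an inhibitor of matrix proteases, differed by −5.03, the class I gene RT1-CE1 by −4.14, Lcn2 by −4.06, Alox15b by −4.04 and Rasl11a by −3.30. Differences for Ccl20, Clu and Timp1 held on set means and the others named here for 24 h did not.

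Against 72 h, Ndufs5 was higher by 4.98, Cyr61 by 4.76, RT1-N2 by 4.48, RT1-T24-1 by 4.44, Pfdn6 by 4.13 and Crb2 by 3.43. Pfdn6 and RT1-T24-1 are among the genes that mark the sets of libraries. The effect was lower at 36 h for Shisa2 by −3.24, RT1-CE3 by −3.08, Alox15b by −2.92, RT1-A1 by −2.71 and Dpysl3 by −2.60. Shisa2 alone of these held on set means. RT1-N2 was lost without control library 3 or lithium library 2 or 3 (0.085, 0.0646 and 0.0516). Dpysl3 was lost without control library 1 or 2 or lithium library 1 or 3 (0.0575 to 0.0787).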

How the results depend on the processing

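For lithium against control at 36 h, the fit on set means called 652 genes (579 higher, 73 lower) in place of 4189, and 1856 called genes (1700 higher, 156 lower) lay outside the range of all 26 control CCD libraries. Quantile normalization gave 2025 higher and 2440 lower genes, and median-of-ratios scaling 2004 lower. Without single libraries 3185 to 3808 genes were called, 2313 to 2962 of them higher and 829 to 1124 lower. A replicate block, for numbers whose meaning the labels do not give, gave 4103.

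For the difference of effects between 36 and 24 h, 1059 genes became 6 (3 higher, 3 lower) on set means, 747 to 1095 without single libraries and 980 with the replicate block. Between 36 and 72 h, 436 became 6 (2 higher, 4 lower) on set means, and the 85 lower became 129 with median-of-ratios scaling and 180 with quantile normalization. Without single libraries 247 to 332 were called, 200 to 279 higher and 47 to 63 lower. The total was 278 without control library 1 or 3, 281 without lithium library 1 and 247 without lithium library 2. The block gave 465.

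Of 217 named genes called at 36 h, 16 lost the call without some library, 2 with median-of-ratios scaling, 10 with quantile normalization, 123 on set means, 2 with the block (Foxi1 and Pck1), 10 with no filter on low values and 3 with no trend. With quantile normalization Itm2b, Mt-atp6, Mt-nd1 and Pebp1 changed sign or reached 0 (0.10, 0.00, 0.13 and 0.0597). The cause was not tested. TPM holds no depth, so how far depth limits the low genes is unknown.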
